A study of Homo sapiens with 6 samples.

Results

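The amino acid transporters examined here are 32 genes of the solute carrier (SLC) families, chosen by name for carrying amino acids across the plasma membrane, the lysosomal membrane or the mitochondrial inner membrane. All 32 were matched by gene ID among the 60660 genes of the count tables, and 28 of them had enough reads to enter the test with 15155 genes in all. They were measured by poly-A RNA-sequencing in 12Z cells, an established epithelial cell line that was derived from endometriosis. Control cells had been transfected with a non-targeting siRNA and knockdown cells with siRNA LINC01133a at 10 nM, which targets the long noncoding RNA LINC01133, and both were taken 72 h after transfection with 3 libraries each. The comparison asks which transporter families differed in RNA level when LINC01133 was depleted, as seen with a single siRNA in a single cell line.

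Amino acids cross membranes largely on such carriers. Exchangers trade a substrate outside the cell for another inside it, sodium-coupled carriers accumulate amino acids against their gradient, and lysosomal carriers release the products of protein breakdown and serve nutrient sensing by the kinase complex mTORC1. Several light chains of the SLC7 family reach the cell surface only when linked by a disulfide bond to the heavy chain 4F2hc, the product of SLC3A2. When amino acids are short, the transcription factor ATF4 raises a number of carrier genes through sites known as C/EBP-ATF response elements.

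The libraries held 27742562 to 37551194 counts on genes. LINC01133 itself (chromosome 1, 159958035 to 159984750 of GRCh38) was counted at 25.1, 25.3 and 25.9 CPM (counts scaled to the size of the library) in control libraries 1 to 3 and at 4.01, 4.05 and 4.28 CPM in knockdown libraries 1 to 3. Knockdown cells thus kept 16.1% of the control level. Control library 2 stood apart from its group. Its counts differed from those of control libraries 1 and 3 with a chi-square per degree of freedom of 10.7 and 11.8, against 3.47 between the latter and 2.08 to 3.26 among knockdown libraries, so results are also given without it. All of the 7 epithelial markers examined passed the filter on low counts, although EPCAM was near 0 (0.421 CPM in control cells), and the summed level of the list was 6199 to 6539 CPM in control and 3969 to 4151 CPM in knockdown libraries. CDH1 (24.6% of control), KRT19 (54.5%), KRT8, KRT7 and KRT18 were lower with an adjusted p under 0.05, while EPCAM and MUC1 were not called. The 6 stromal genes summed to 4426 to 4618 and 4543 to 4717 CPM, most of it COL3A1, which was not called. Of the others, PDGFRA (35.0% of control), DCN, LUM and PDGFRB were lower and MME was higher, all with an adjusted p under 0.05, whereas 5 leukocyte markers summed to 0.801 to 0.975 and 0.570 to 0.876 CPM, and CD3E had no count. A list of 4 endothelial markers summed to 49.1 to 50.2 and 34.4 to 36.6 CPM, most of it KDR, which was lower, while CDH5 was higher (1.96 and 5.38 CPM). The part of these marker changes in the results below was not tested. In bulk RNA, a change in the level per cell cannot be told apart from a change in the number of cells that express a gene.

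The siRNA is shown because its seed, the bases 2 to 8 of the guide strand, can pair with other transcripts. In both strands the seed is in capitals.
siRNA LINC01133a guide strand: uCCAUUCUcagguaacuucaa
siRNA LINC01133a passenger strand: gAAGUUACcugagaauggatt
A match of 7 bases to the guide seed (AGAATGG) lies in the annotated 3′ UTR of 6 of the 28 tested transporters (21.4%), compared with 17.1% of 12538 tested genes with an annotated 3′ UTR. A match of 8 bases (AGAATGGA, with an A opposite base 1 of the guide) lies in only 1 of them, SLC38A2 (3.57%, against 5.77% of all), which holds it at 2 places. The median length of the 3′ UTR was 1876 bases for the tested transporters and 1365 bases for all, and a longer 3′ UTR has more places for a match. The windows below are from the 3′ UTRs of GENCODE v44 (GRCh38), with the match in capitals, for the tested transporters with a match that are described in detail.
SLC38A2, chr12:46360832-46360860, minus strand: ttccattccagAGAATGGAcaaactctta
SLC38A2, chr12:46360262-46360290, minus strand: ttcaacttattAGAATGGAagataatgca
SLC6A6, chr3:14487481-14487509, plus strand: cctgtctatagAGAATGGgcaaagtcctt
SLC36A4, chr11:93146082-93146110, minus strand: ctttagcaataAGAATGGtgaatcaacat
SLC7A6, chr16:68299693-68299721, plus strand: gttgctgtatgAGAATGGctttcaatcct
SLC1A4, chr2:65022920-65022948, plus strand: ccattgagatgAGAATGGgtagatggaac
The log2 fold changes (log2FC, knockdown against control) of these genes, described further below, ran from -1.05 for SLC6A6 to 0.95 for SLC1A4. The other tested member with a match of 7 bases was SLC43A2 (-0.43). Over all tested genes the median log2FC was -0.152 with the 8-base match, -0.095 with a match of at least 7 bases and 0.001 without a match of 7 bases. A match of 7 bases to the passenger seed lies in the 3′ UTR of 3 of the 28 tested transporters (10.7%, against 13.6% of all). The part of either seed in the changes of the transporters was not tested.

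The promoters of members were searched for TGATGNAA, the core of the C/EBP-ATF response element, on both strands of windows from 250 bases before to 50 bases after the start of RefSeq transcripts (GRCh38.p14). Windows were found for 28 of the 32 genes. SLC6A6, SLC6A15, SLC7A2 and SLC43A3 had none in this table. The core was present for 6 of these 28 genes (21.4%) and 6 of their 52 windows (11.5%), whereas 4.46% of all 27305 genes and 3.62% of all 35116 windows held it. A gene with several annotated starts has several windows, and the core was in 1 window of each of the 6 genes. For SLC1A4 and SLC7A5, the transporters that were DE and higher, 1 window is shown whole, and for other members the bases around the match. The window of SLC1A4 shown is the one with the match, while its other window, nearer to the annotated start of the gene, does not hold the core. Capitals mark the core, on the strand shown or its complement.
SLC1A4, chr2:64989149-64989448, plus strand: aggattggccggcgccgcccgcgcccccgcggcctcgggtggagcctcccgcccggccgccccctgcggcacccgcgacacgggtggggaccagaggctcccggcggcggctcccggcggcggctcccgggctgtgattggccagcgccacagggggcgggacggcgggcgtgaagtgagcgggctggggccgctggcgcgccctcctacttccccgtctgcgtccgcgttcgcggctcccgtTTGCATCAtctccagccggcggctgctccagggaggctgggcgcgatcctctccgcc
SLC7A5, chr16:87869458-87869757, minus strand: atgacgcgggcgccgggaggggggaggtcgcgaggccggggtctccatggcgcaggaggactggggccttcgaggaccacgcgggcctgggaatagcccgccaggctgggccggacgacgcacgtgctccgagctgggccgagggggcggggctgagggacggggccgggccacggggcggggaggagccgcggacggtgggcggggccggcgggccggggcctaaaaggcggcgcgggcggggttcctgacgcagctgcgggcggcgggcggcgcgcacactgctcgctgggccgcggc
SLC7A1, chr13:29595648-29595707, minus strand: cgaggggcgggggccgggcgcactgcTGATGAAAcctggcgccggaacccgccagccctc
SLC38A1, chr12:46266487-46266546, minus strand: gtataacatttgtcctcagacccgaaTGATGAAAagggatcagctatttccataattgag
SLC1A5, chr19:46784878-46784937, minus strand: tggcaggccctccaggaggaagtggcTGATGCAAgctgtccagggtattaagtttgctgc
SLC3A2, chr11:62881710-62881748, plus strand: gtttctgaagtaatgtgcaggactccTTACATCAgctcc
Counted from the start of the window's own transcript, the match began 7 bases before the start in SLC1A4, 4 before it in SLC38A1 and 97 before it in SLC1A5, and 7 bases after it in SLC7A1 and 37 after it in SLC3A2. SLC38A1, SLC1A5 and SLC3A2 also have windows without the core. The remaining match was in SLC1A3, which had at most 7 counts in a library. Of the 5 expressed genes with the core, SLC1A4, SLC7A1, SLC38A1 and SLC3A2 had a higher RNA level in knockdown cells, as described below. The call of SLC3A2 was lost in 4 alternative fits, and SLC1A5 (log2FC -0.11) did not pass the test. By the same cutoff, 13 of the 28 tested transporters and 23.3% of all tested genes were higher. Of these 13, SLC7A5, SLC6A9, SLC36A1, SLC38A7, SLC38A9, SLC38A10, SLC43A1, SLC25A13 and SLC25A22 have only windows without the core. The part of the core in these changes was not tested. The single window of SLC7A5, the windows of SLC7A7 and those of SLC7A8 do not hold these letters. A match is a description of the sequence, and binding was not measured.

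Levels were compared between genes per length, as RPKM (CPM per kilobase of exon), and ranged widely among members. In control cells SLC38A2 was the highest with 133 ± 17.3 RPKM (SD, n = 3), followed by SLC1A5 with 48.5 ± 2.40 and SLC38A1 with 33.5 ± 3.34. SLC25A13, SLC7A1, SLC7A6, SLC7A5, SLC6A6, SLC38A10 and SLC3A2 came next, between 21.3 and 13.4 RPKM. SLC6A15 was the lowest gene tested, at 0.0553 RPKM. The length includes all annotated exons of a gene, so levels of genes with long exons that these cells do not use are understated. The summed level of the 32 genes was 396 ± 26.4 RPKM in control and 399 ± 9.42 RPKM in knockdown cells (SD, n = 3 each), a difference smaller than the spread between control libraries.

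**Figure D1:**
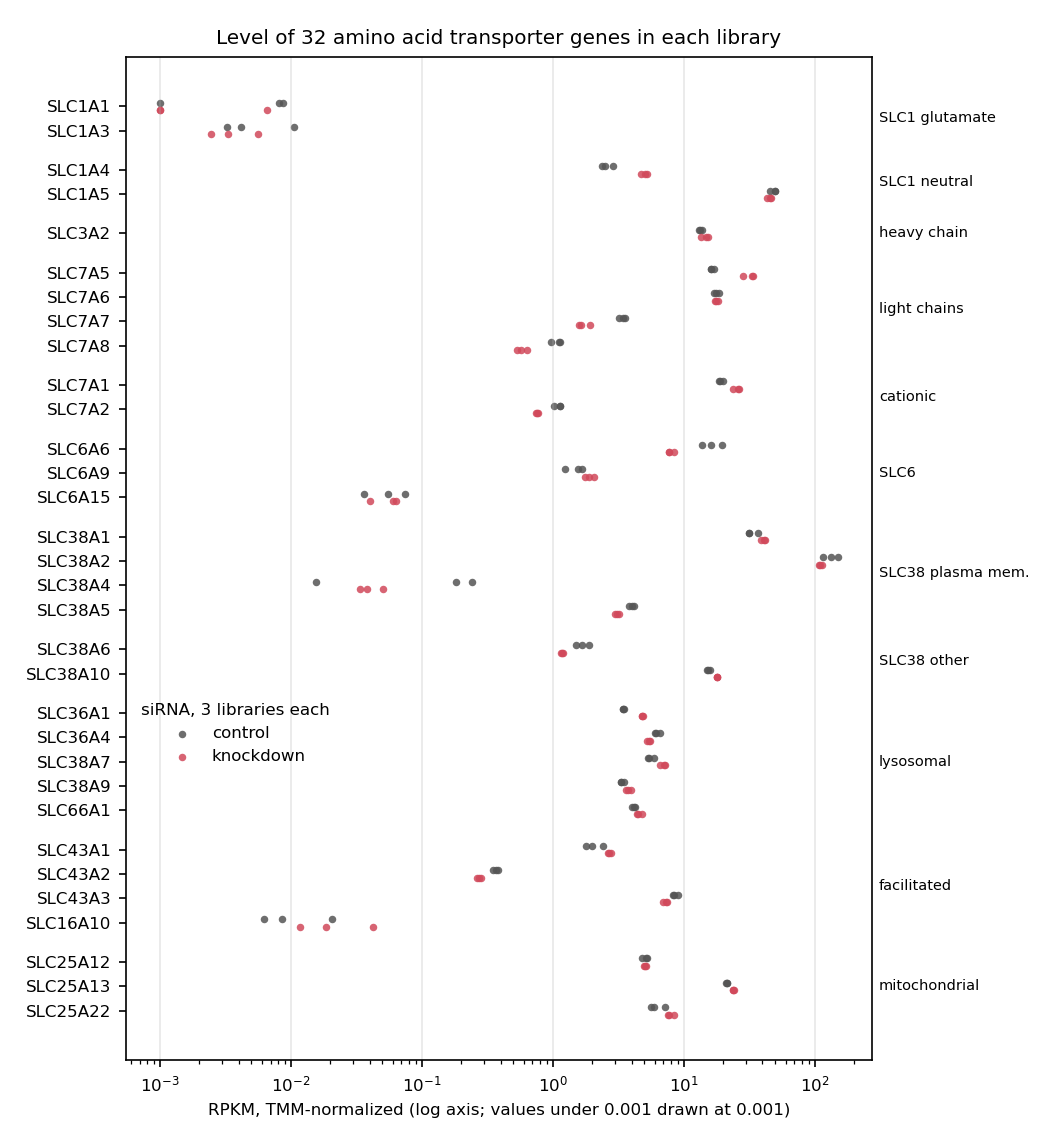
Level of each of the 32 transporter genes, with RPKM on a log axis, the genes grouped by role, and 1 point per library for 3 control (grey) and 3 knockdown (red) libraries. SLC38A2 lies highest, at 133 RPKM on average in control cells, and the low end holds SLC6A15 (0.0553 RPKM) and the 4 genes that were not tested, SLC1A1, SLC1A3, SLC16A10 and SLC38A4, which had 29 counts or fewer in each library.

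Differential expression (DE) was called at the cutoffs of the study, a fold change over 1.5 in either direction (0.585 on the log2 scale) with an adjusted p under 0.05, with p from the quasi-likelihood test of edgeR, adjusted by the Benjamini-Hochberg method across the 15155 genes. Of the 28 transporters tested, 5 were DE (17.9%), where 11.7% of all tested genes were. SLC1A4 and SLC7A5 were higher in knockdown cells (5.30% of all tested genes were DE in this direction), and SLC6A6, SLC7A7 and SLC7A8 were lower (6.43%). Without the fold change cutoff, 23 of 28 (82.1%) had an adjusted p under 0.05, 13 of them higher and 10 lower, against 48.3% of all tested genes, 23.3% higher and 25.0% lower. Control and knockdown libraries did not overlap for 23 of the 28, compared with 57.3% of all tested genes. The tested transporters had more reads than the usual gene, with a median of 32.1 CPM against 21.3 CPM over all genes tested. Their median log2FC was 0.064 (0.003 over all genes tested), and 14 were above and 14 below 0. The transporters thus changed in both directions, within families as well as between them. The count of DE transporters stayed at 5 without control library 2, and the same 5 passed.

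**Figure D2:**
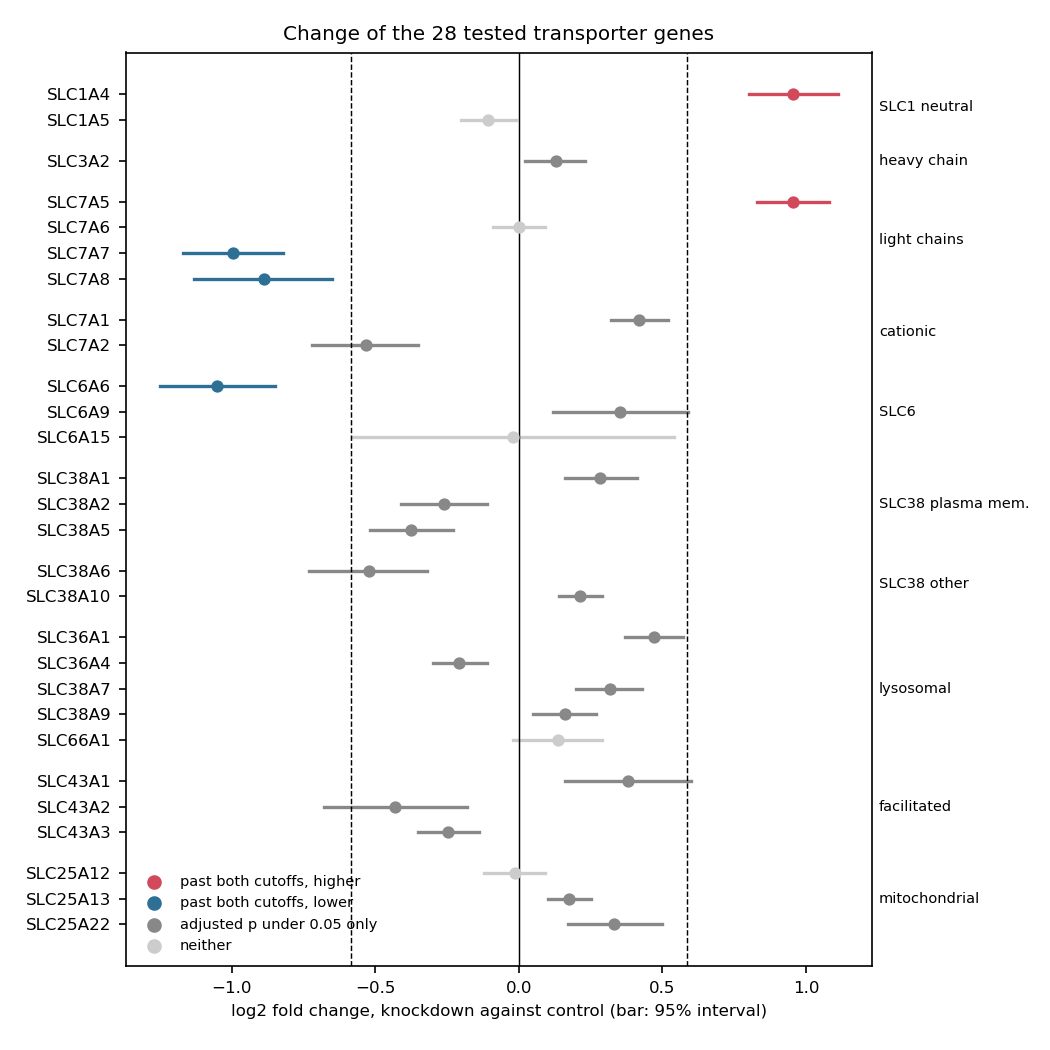
Log2 fold change of the 28 tested transporters, knockdown against control, with 95% intervals from edgeR and dashed lines at the 1.5-fold cutoff, 3 libraries per group. SLC1A4 (0.95) and SLC7A5 (0.95) lie beyond the upper line and SLC6A6 (-1.05), SLC7A7 (-1.0) and SLC7A8 (-0.89) beyond the lower one, while the other 23 estimates lie between them.

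The light chains of the heteromeric carriers moved apart, with SLC7A5 higher, SLC7A7 and SLC7A8 lower and SLC7A6 not called. SLC7A5 (ENSG00000103257.9, chromosome 16, 87830023 to 87869507) encodes LAT1, which brings leucine and other large neutral amino acids into the cell in exchange for glutamine. It was counted at 81.3, 77.8 and 76.5 CPM in control libraries 1 to 3 and at 161, 159 and 136 CPM in knockdown libraries 1 to 3. Each knockdown library was thus well above each control library, with knockdown library 3 the lowest of its group. The level was 1.94 times that of control (log2FC 0.95 with a standard error (SE) of 0.057, adjusted p = 3.3e-08), and the log2FC was 0.94 without control library 2. Its annotated copies SLC7A5P1 and SLC7A5P2 had 0 counts in these libraries, but since only reads with a single place in the genome were kept, reads shared with them are missing from SLC7A5.

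SLC7A8 (ENSG00000092068.20, chromosome 14, 23125295 to 23183674) encodes LAT2, a related light chain for neutral amino acids that is known from polarized epithelia of kidney and gut. Its level was low, with 6.70, 6.79 and 5.80 CPM in control and 3.22, 3.45 and 3.79 CPM in knockdown libraries, which did not overlap. It fell to 54.0% of control (log2FC -0.89, SE 0.11, adjusted p = 2.5e-05). Tested directly against a 1.5-fold change, SLC7A8 missed the cutoff (adjusted p = 0.054), whereas the other 4 DE transporters passed. Per length, the level of SLC7A5 was 15.4 ± 1.11 times that of SLC7A8 in control and 55.3 ± 9.04 times in knockdown cells (SD, n = 3 each).

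SLC7A7 and SLC7A6 encode y+LAT1 and y+LAT2, light chains that exchange cationic for neutral amino acids, and SLC7A7 is mutated in lysinuric protein intolerance. SLC7A7 (ENSG00000155465.20, chromosome 14, 22773222 to 22829820) had 19.2, 17.3 and 18.6 CPM in control and 8.59, 8.85 and 10.3 CPM in knockdown libraries. All knockdown libraries were below all control libraries, and the level fell to 50.1% (log2FC -1.0, SE 0.080, adjusted p = 4.5e-07). SLC7A6 (ENSG00000103064.15) had 135, 141 and 129 CPM in control and 138, 135 and 132 CPM in knockdown libraries, so the groups overlapped. The interval of its log2FC was -0.09 to 0.09 (adjusted p = 0.99), an interval that does not reach the change of SLC7A7. SLC7A6 lies across the gene SLC7A6OS on the opposite strand, 15.9% of its stranded counts were on the strand of read 1, and counting without strand kept only 29.6% of its counts.

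The heavy chain SLC3A2 (ENSG00000168003.17), which these light chains share, had a much smaller change than SLC7A5, with an interval of 0.02 to 0.23 against 0.83 to 1.08 on the log2 scale. It was counted at 88.8, 84.8 and 83.6 CPM in control and at 98.6, 95 and 87.1 CPM in knockdown libraries, with knockdown library 3 below control library 1. The log2FC of 0.13 (SE 0.048) had an adjusted p of 0.042, which rose to 0.12 without control library 3, 0.20 without knockdown library 1, 0.12 without knockdown library 2 and 0.065 with DESeq2. The level of SLC3A2 per length was 0.813 times that of SLC7A5 in control and 0.460 times in knockdown cells. Within the summed RPKM of the 4 light chains, the share of SLC7A5 was 42.5% ± 0.853 in control and 61.3% ± 2.07 in knockdown cells (SD, n = 3 each). The shares of SLC7A6, SLC7A7 and SLC7A8 were 45.9%, 8.83% and 2.76% in control and 34.3%, 3.34% and 1.12% in knockdown cells. The sum itself was 38.8 ± 1.08 RPKM in control and 52.0 ± 2.99 RPKM in knockdown cells (SD, n = 3 each). The shares and the sum cover only the light chains among the members. They leave out SLC7A11, another light chain of SLC3A2, with 7.75 ± 1.61 RPKM in control and 8.78 ± 1.10 RPKM in knockdown cells (SD, n = 3 each).

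**Figure D3:**
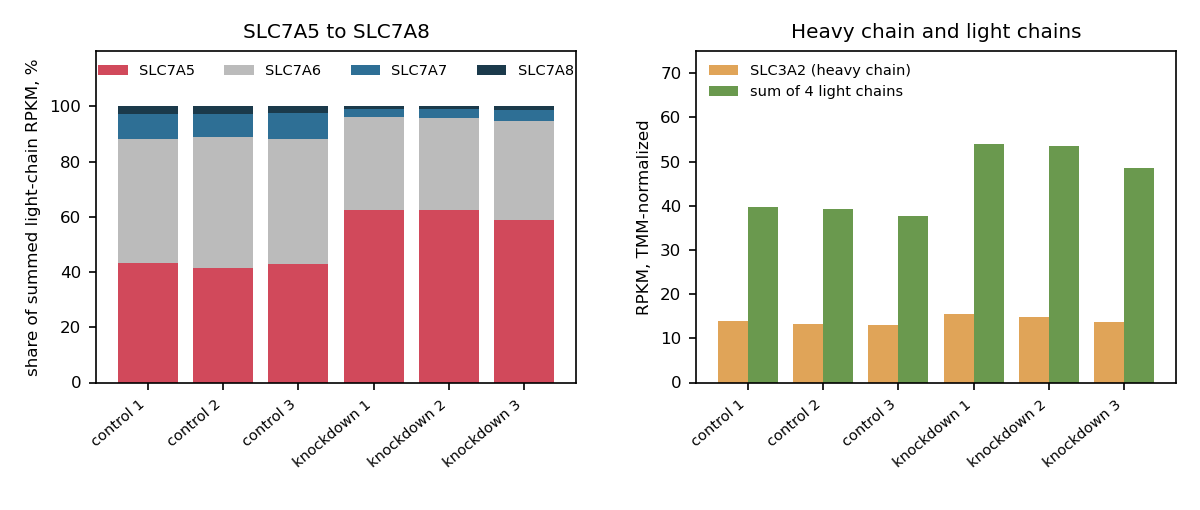
Left, stacked shares (%) of SLC7A5, SLC7A6, SLC7A7 and SLC7A8 in their summed RPKM for each of the 6 libraries. Right, bars from 0 for the RPKM of the heavy chain SLC3A2 and the summed RPKM of the 4 light chains in each library. The share of SLC7A5 is 41.5% to 43.2% in control and 58.9% to 62.5% in knockdown libraries, and the heavy chain averages 13.4 RPKM in control and 14.6 RPKM in knockdown libraries.

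The SLC1 family holds neutral amino acid exchangers and glutamate carriers. SLC1A4 (ENSG00000115902.11, chromosome 2, 64988477 to 65023865) encodes ASCT1, an exchanger of serine, alanine, cysteine and threonine. It had 17.5, 16.4 and 20 CPM in control and 36.4, 35.3 and 32.6 CPM in knockdown libraries, without overlap. Its level rose 1.94-fold (log2FC 0.95, SE 0.071, adjusted p = 2.1e-07), and the log2FC was 0.89 without control library 2. SLC1A5 (ENSG00000105281.12) encodes ASCT2, which is known above all for glutamine exchange, and it was the second most abundant transporter. It had 165, 167 and 152 CPM in control and 153, 154 and 143 CPM in knockdown libraries. The groups overlapped, and the log2FC of -0.11 had an interval of -0.20 to -0.01 before adjustment and an adjusted p of 0.065, which was 0.016 without control library 3. The level of SLC1A4 per length was 5.01 RPKM in knockdown cells, still well below the 45.0 RPKM of SLC1A5. The glutamate carriers SLC1A1 (EAAT3), with 0 to 1 counts per library, and SLC1A3 (EAAT1), with 2 to 7 counts, were removed by the filter on low counts and could not be compared at this depth.

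**Figure D4:**
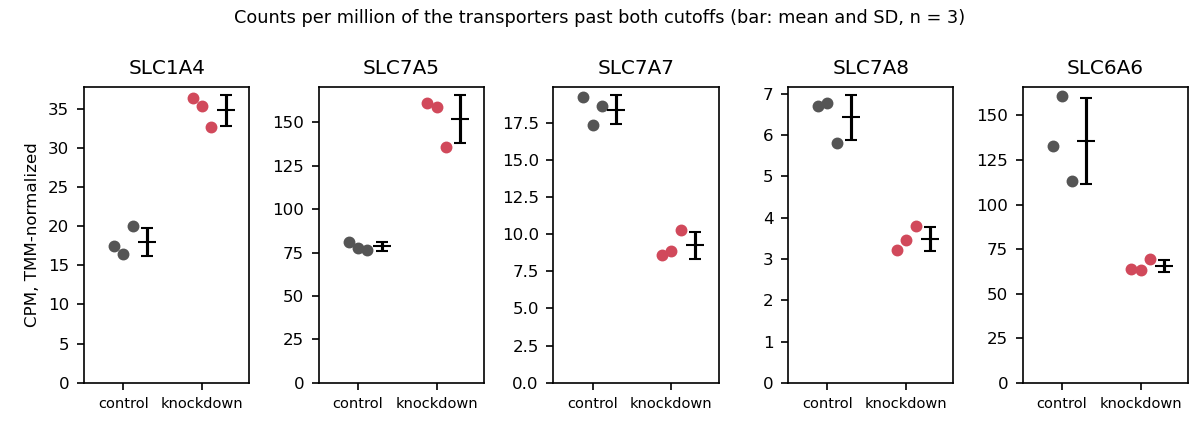
CPM of the 5 DE transporters in each library, on axes from 0, with the mean and SD of 3 libraries per group beside the points. SLC1A4 and SLC7A5 are higher and SLC7A7, SLC7A8 and SLC6A6 lower in each knockdown library than in any control library, and the widest spread is that of SLC6A6 in control cells, from 113 to 161 CPM.

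Of the SLC6 carriers, which are driven by sodium and chloride, SLC6A6 (ENSG00000131389.17, chromosome 3, 14402576 to 14489349) had the lowest log2FC of the tested transporters with all libraries in the fit. It encodes the taurine transporter TauT, and taurine serves cells as an osmolyte. It was counted at 133, 161 and 113 CPM in control and at 63.8, 63.5 and 69.4 CPM in knockdown libraries. Control libraries varied more than knockdown libraries, with control library 2 the highest, but the groups did not overlap. The level fell to 48.3% (log2FC -1.05, SE 0.095, adjusted p = 1.3e-06), and the log2FC was -0.91 without control library 2, where that of SLC7A7 was lower (-1.04). The 3′ UTR of SLC6A6 holds the 7-base match to the guide seed shown above. So do those of SLC36A4 and SLC43A2, which fell, SLC7A6, which was not called, and SLC1A4, which rose. The annotated copy of SLC6A6, SLC6A6P1, had 0 counts. SLC6A9, which encodes the glycine transporter GlyT1, was higher with a log2FC of 0.35 (adjusted p = 0.016), a call that was lost without control library 3 (0.061) or knockdown library 2 (0.075). SLC6A15, a carrier of branched-chain amino acids and proline, had 21 to 51 counts per library, and its interval of -0.58 to 0.54 leaves a change close to 1.5-fold possible.

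The cationic carriers moved in opposite directions, both under the fold change cutoff. SLC7A1 (ENSG00000139514.13) encodes CAT1, the main uptake route for arginine and lysine in many cells. It rose from 142, 153 and 145 CPM in control to 205, 199 and 184 CPM in knockdown libraries, and the groups were clearly apart. The log2FC was 0.42 (SE 0.046, adjusted p = 7.9e-06). SLC7A2, which encodes CAT2, was far less abundant (1.10 RPKM against 19.1 RPKM for SLC7A1 in control cells) and fell, with a log2FC of -0.53 (adjusted p = 2.2e-04).

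The SLC38 carriers of the plasma membrane held the largest share of the transporter RNA, 43.0% ± 2.25 of the summed RPKM in control and 38.7% ± 0.615 in knockdown cells (SD, n = 3 each). SLC38A2 (ENSG00000134294.14) encodes SNAT2, a sodium-coupled carrier of small neutral amino acids that is known to be induced by amino acid shortage. It had 870, 974 and 749 CPM in control and 710, 737 and 719 CPM in knockdown libraries. The groups were separate by a small margin, and the spread lay almost wholly in the control libraries. The log2FC was -0.26 (SE 0.069, adjusted p = 0.0071), and the log2FC shrank to -0.169 without control library 2. The 3′ UTR holds both 8-base seed matches printed above. SLC38A1 (SNAT1), which carries similar substrates, rose with a log2FC of 0.28 (adjusted p = 0.0012). The level of SLC38A1 per length was therefore 0.253 ± 0.0185 times that of SLC38A2 in control and 0.368 ± 0.0142 times in knockdown cells (SD, n = 3 each). SLC38A5 (SNAT5), a carrier of glutamine, asparagine and histidine, fell by 0.37 on the log2 scale (adjusted p = 4.3e-04).

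SLC38A4, a carrier of small neutral amino acids best known in liver, was removed by the filter. Its counts were 26, 29 and 2 in control libraries 1 to 3 and 6, 7 and 4 in knockdown libraries 1 to 3, so control library 3 resembled the knockdown group. With DESeq2 it was called lower (log2FC -1.85, adjusted p = 0.026), as it was with no filter in edgeR (-1.81, adjusted p = 3.5e-05) and without control library 3, where it passed the filter (-2.34, adjusted p = 2.4e-04). It passed the filter without each of the knockdown libraries too, with adjusted p values of 0.096, 0.065 and 0.091. A pair of further members of the family have less settled roles. SLC38A10 (ENSG00000157637.13) had 126, 121 and 120 CPM in control and 141, 142 and 143 CPM in knockdown libraries, a small rise with little spread (log2FC 0.21, SE 0.036, adjusted p = 2.8e-04). SLC38A6 fell by 0.52 (adjusted p = 5.3e-04), near the cutoff, and passed it without control library 3 (-0.593).

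Of the 5 lysosomal carriers, 4 had an adjusted p under 0.05 with none DE, where 48.3% and 11.7% of all tested genes were. Their median absolute log2FC was 0.208, close to the 0.209 of all tested genes. The most abundant in control cells, SLC36A4 (ENSG00000180773.15), encodes PAT4, a carrier of proline and tryptophan, and had 58.4, 63.9 and 60.0 CPM in control and 52.6, 51.3 and 53.8 CPM in knockdown libraries. It was lower in each knockdown library (log2FC -0.21, SE 0.044, adjusted p = 0.0016). SLC36A1 (PAT1), a proton-coupled carrier of glycine, alanine and proline, rose instead. It had 24.2, 24.5 and 24.2 CPM in control and 33.3, 33.8 and 33.9 CPM in knockdown libraries, with little spread in either group and a log2FC of 0.47 (SE 0.046, adjusted p = 2.5e-06). SLC38A7 (SNAT7), which exports glutamine from lysosomes, rose by a log2FC of 0.32 (adjusted p = 2.7e-04). SLC38A9, the arginine sensor that signals to mTORC1, had a log2FC of 0.16 with an adjusted p of 0.021, which was between 0.052 and 0.11 with DESeq2 and without control library 1, knockdown library 1 or knockdown library 2. SLC66A1 (PQLC2), which exports cationic amino acids, had 0.13 with an adjusted p of 0.13 and libraries that did not overlap.

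Of the carriers that work by facilitated diffusion, SLC43A3 (ENSG00000134802.18) was the most abundant. It is grouped by its sequence with amino acid carriers, although it is known to transport purine nucleobases. It had 38.1, 37.6 and 40.8 CPM in control and 33.7, 33.0 and 31.5 CPM in knockdown libraries, all of them lower, with a log2FC of -0.24 (SE 0.049, adjusted p = 0.0011). SLC43A1 (LAT3) and SLC43A2 (LAT4) both carry leucine and other large neutral amino acids without a heavy chain. SLC43A1 rose by a log2FC of 0.38 (adjusted p = 0.0077) and SLC43A2 fell by 0.43 (adjusted p = 0.0073). SLC16A10 (TAT1), a carrier of aromatic amino acids, had 2 to 16 counts per library and was not tested.

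The mitochondrial carriers SLC25A12 and SLC25A13 exchange aspartate for glutamate and take part in the malate-aspartate shuttle. SLC25A13 (ENSG00000004864.14) encodes citrin and had 78.4, 79.2 and 79.0 CPM in control and 89.8, 88.9 and 88.4 CPM in knockdown libraries. Its rise was small but exceeded the spread (log2FC 0.17, SE 0.036, adjusted p = 0.0012). For SLC25A12 (aralar) the groups overlapped, and the interval of its log2FC was -0.12 to 0.09 (adjusted p = 0.85). SLC25A22, which imports glutamate into mitochondria, had 32.8, 26.1 and 27.5 CPM in control and 35.6, 38.8 and 34.7 CPM in knockdown libraries. It was higher in each knockdown library, with a log2FC of 0.33 (adjusted p = 0.0026).

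Among roles with a tested gene, the summed level per length was lowest against control for the SLC6 carriers, at 0.550 times the control level, which followed SLC6A6. The heteromeric light chains rose to 1.34 times and the cationic carriers to 1.30 times the control level. The other roles with a tested gene lay between 0.908 times for the SLC38 carriers of the plasma membrane and 1.13 times for the mitochondrial carriers. These sums were not tested, since a few abundant genes can carry them. The most abundant gene of a role in control cells did not always move with its sum. SLC7A6 was not called while the sum of the light chains rose, and SLC36A4 fell while the lysosomal sum rose to 1.12 times the control level.

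Among 36 further amino acid carriers, only 13 were expressed enough to be tested. SLC25A29 and SLC25A38, mitochondrial carriers of basic amino acids and of glycine, were DE and higher (log2FC 0.68 and 0.63), and SLC38A3, a glutamine carrier, was DE and lower (-0.93). SLC7A11, the cystine light chain that also binds SLC3A2, had a log2FC of 0.19 (adjusted p = 0.20). The list had a median log2FC of 0.031, and 4 of its genes were higher and 2 lower with an adjusted p under 0.05. These are 46.2% of the list, close to the 48.3% of all tested genes, and the 3 DE genes are 23.1%, against 11.7%. A list of 37 genes of nutrient sensing by mTORC1 included mTORC1 itself (MTOR, RPTOR and MLST8) and also RHEB, TSC1, TSC2 and TBC1D7. Of the 37 genes, 34 were tested and 20 had an adjusted p under 0.05, 15 higher and 5 lower (median log2FC 0.069). This is 58.8% of the list, against 48.3% of all tested genes, and 8.82% were DE, against 11.7%. The DE genes among them were SESN2 (1.00), which encodes a leucine sensor, its relative SESN1 (-0.87), and BMT2 (-0.93), which encodes the S-adenosylmethionine sensor SAMTOR. MTOR itself had a log2FC of -0.01 (adjusted p = 0.90).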

How the data were processed

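The authors aligned paired reads with STAR 2.7.6a (build GRCh38.p13, genes of GENCODE v36) and deposited raw counts per gene of reads that had a single place in the genome. Of the stranded columns, the one opposite to read 1 was used here, since it held 93.86% to 94.11% of the counts. The kit differs between the sources, NEB in the labels and TruSeq in the methods of the study. Genes were filtered with filterByExpr (minimum count 10), normalized by TMM and compared in R 4.3.3 with edgeR 4.0.16 (quasi-likelihood fit on condition alone). CPM and RPKM use TMM library sizes, and RPKM the union of exons of GENCODE v44, which is on the same build but later than v36. Standard errors are the log2 fold change divided by the square root of F. The study used DESeq2, which was run here (1.42.0) as an alternative.

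The members, role groups and lists were chosen with earlier results of these data known. Named in detail were the DE members and the most abundant member of each role, other members by their fold change, and in other lists the DE genes. Genes named outside this rule (SLC25A22, SLC36A1, SLC38A4, SLC7A11 and MTOR) were chosen after their values were seen. The study calls the libraries of a group biological replicates, but the labels do not say that they were separate cultures, so p-values measure the spread between these libraries. No libraries were duplicates (chi-square per degree of freedom at least 2.08). The fits were also run on simulated data with known changes, drawn with the same dispersion for all genes, unlike real data. At an adjusted p under 0.05, edgeR recovered 56 of 62 genes changed 1.5-fold and called 13 unchanged genes among 15198 tested.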

Additional observations from a re-analysis of the deposited data

How the results depend on the processing

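At both cutoffs, 26 of the 28 tested transporters had the same call under each of 14 alternatives, the exceptions being SLC7A8 and SLC38A6. The test against a 1.5-fold change dropped SLC7A8 (4 transporters called) and called 0 of the further carriers in place of 3. DESeq2 and the fit without a filter called 6 transporters, with SLC38A4 added. With each library left out in turn, 5 to 7 transporters passed both cutoffs, 7 of them without control library 3 (SLC38A4 and SLC38A6 added), and 20 to 23 had an adjusted p under 0.05. For the further carriers 2 to 3 passed, and for the mTORC1 list 3 to 4. SLC7A6, SLC6A15 and SLC25A12, none of them called in any alternative, were the tested members that changed sign. With library size alone, which moved the median of all genes from 0.003 to 0.065, the log2 fold change was 0.062 for SLC7A6, 0.040 for SLC6A15 and 0.049 for SLC25A12. SLC7A6 was also above 0 with at least 10 counts in every library (0.003), without a filter (0.001) and with the unstranded column (0.053). With each library left out, SLC7A6 ranged from -0.029 to 0.029, SLC6A15 from -0.24 to 0.26 and SLC25A12 from -0.050 to 0.011. LINC01133 ranged from -2.65 to -2.57 over all alternatives. No pairing of the libraries by replicate number was seen, since same-numbered libraries had deviations from the group mean that correlated by -0.015, 0.005 and 0.057. With 3 libraries per group, these values cannot exclude that same-numbered libraries were handled together. With the replicate number as a block, 5 transporters passed both cutoffs and 24 had an adjusted p under 0.05, SLC1A5 being added (0.031). SLC66A1 was added with library size alone (0.036). The 4 transporters with 29 counts or fewer per library are limited by depth.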
